A study of Homo sapiens with 2 samples.

Results

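RAB GTPases are small GTP-binding proteins that give each membrane compartment of the secretory and endocytic routes its identity. Each is held inactive in the cytosol by a GDP dissociation inhibitor, is inserted into its target membrane through prenyl groups at its carboxyl terminus, is loaded with GTP by an exchange factor, recruits tethers, motors and coat proteins as effectors, and is switched off by a GTPase-activating protein. RAB5 and RAB7 act in sequence on early and late endosomes, and several RABs have been placed on macropinosomes, the large vacuoles through which pancreatic cancer cells take up extracellular protein. The genes described here are all those with a platform symbol of RAB, a number and at most 1 final letter, read by probe sets annotated to a single gene. The rule found 57 genes with 138 probe sets, of 19775 genes with 41097 such probe sets in all. RAB34 was not among them, because both of its probe sets are also annotated to NARR and read 7.71 to 19.5, and RAB40AL and the RAB11FIP and RAB3GAP genes did not meet the rule.

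AsPC-1 is an established human pancreatic tumor cell line. One culture was labelled control and the other PGR interference, with 1 array per condition. According to the study's methods the interference was by transfected siRNA duplexes against PGR, the progesterone receptor. The labels name DMEM with fetal bovine serum for the cultures, whereas the methods name another medium for this line, and neither says which duplex the array sample received. Biotin-labelled cRNA made from total RNA was hybridised to 3' expression arrays, and the deposited values are linear intensities, 1 per probe set and array. With a single array per condition there is no replicate error, no test and no p-value, and array and condition cannot be told apart. The antisense strands of both duplexes listed by the study are shown to identify the treatment, with the seed (bases 2 to 8) in capitals.
si-PGR-1: uUGCCUCAaaccaauugcctt
si-PGR-2: uCUUGGGUaauugugcagctt

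PGR itself gave no usable check of the labels. Its probe sets gave 16.1 and 1.53 for the control label and 73.3 and 4.80 for the PGR siRNA label, all under the signal floor of 97.9, which is the median of all values of single-gene probe sets. Their order runs opposite to the labels, but values this low settle nothing about them, and every direction given here is that of the array labels. The 7 fixed markers of ductal epithelium, among them KRT8, KRT19, EPCAM and CDH1, were past the floor on both arrays. KRT7 and MUC1 were nearest to the floor, at 189 and 122 for the control label and 182 and 174 for the PGR siRNA label. Among 14 measured markers of fibroblasts, leukocytes, endothelium and acinar cells, COL1A1 alone was past it on both arrays, at 299 and 298 (log2 difference -0.0038). DCN, PECAM1 and CD14 reached the floor on the array labelled control alone, at 115, 163 and 114 against 60.4, 93.2 and 87.8. Their part in the RAB results was not tested.

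The brightest probe set, by mean signal, stood for each gene, and differences are log2(intensity + 1) values of the array labelled PGR siRNA minus those of the array labelled control. All 41 RAB genes that reached the floor on either array reached it on both, and the remaining 16 were under it on both. Of all 19775 genes, 11614 reached the floor on either array and 10840 on both. Most RAB genes differed little between the arrays. Of the 41, 31 lay within 1.2-fold between the arrays (75.6%), beside 73.7% of the 10840 genes past the floor on both arrays. A single RAB gene, RAB38, was at least 1.5-fold higher on the array labelled PGR siRNA, where 3.65% of all genes past the floor on either array and 1.86% of those past it on both were. No RAB gene was at least 1.5-fold lower, where 4.72% and 2.31% of all genes were, and none was 2-fold apart. With no filter on low values 6 of the 57 RAB genes were at least 1.5-fold higher, beside 14% of all genes, and 4 lower, beside 16.6%. Neither count exceeds the share of all genes, and whether either falls short of it was not tested. Over all genes with both values past the floor the median difference was 0.023, with 5847 higher and 4993 lower. For the 41 RAB genes it was -0.0080, with 19 higher and 22 lower. After median centring of the arrays the split was 26 higher and 15 lower. RAB5A, RAB8A, RAB14, RAB17, RAB25, RAB29 and RAB35 lie so close to 0 that the added shift turned their sign. Averaging probe sets moved the split the other way, to 16 higher and 25 lower when every probe set was used. With only those past the floor on both arrays it was 15 and 26. The split thus rests on the processing and gives no direction for the family. By the brightest probe set the differences of the 41 RAB genes had an SD of 0.21, beside 0.27 for all genes. They ran from -0.37 for RAB33B to 0.68 for RAB38. An SD across genes measures how the genes differ from each other and is no replicate error. In bulk RNA a difference in cell composition and a difference in RNA per cell cannot be told apart.

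**Figure D1:**
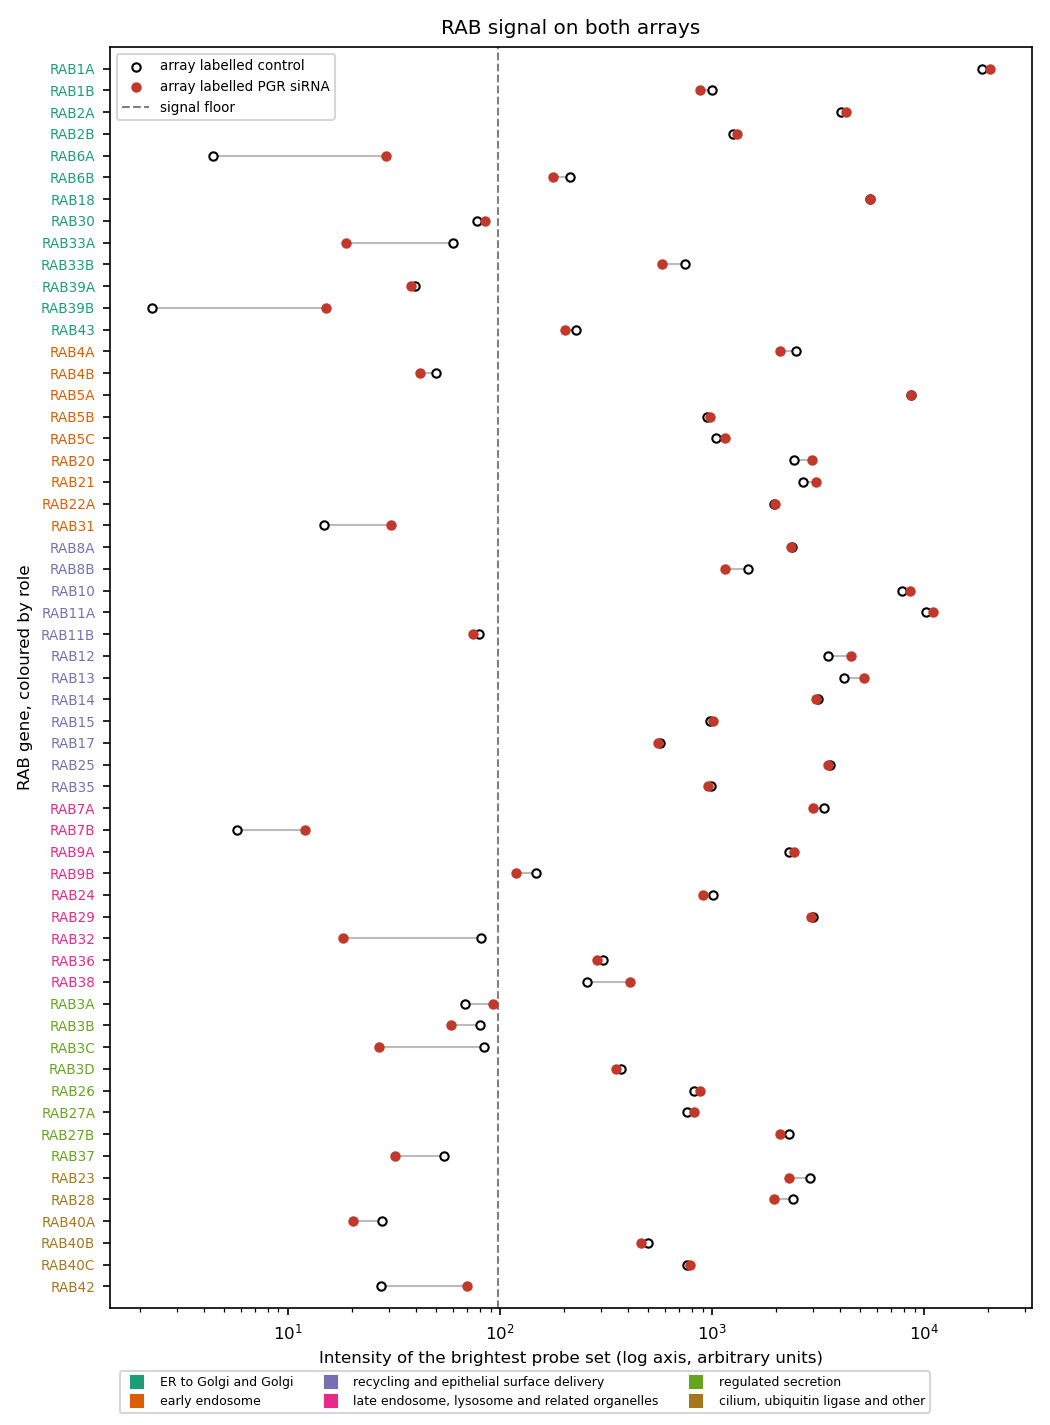
Intensity of the brightest probe set of each of the 57 RAB genes on a log axis, with open points for the array labelled control, red points for the array labelled PGR siRNA, a dashed line at the signal floor of 97.9 and gene names coloured by role. The 41 genes right of the floor have points that lie close together, with the widest gap at RAB38, and the wide gaps lie among the 16 genes left of it.

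RAB38, which directs cargo to melanosomes and other lysosome-related organelles, gave intensities of 256 under the control label and 411 under the PGR siRNA label, the order in which pairs of intensities are given from here on. The log2 difference was 0.68, from the only probe set of the gene. RAB32, its closest relative in the same pathway, was under the floor on both arrays. Among the other genes of late endosomes and lysosomes, RAB7A, which drives fusion of late endosomes with lysosomes, read 3350.4 and 2988. Its difference was -0.17, and those of its other 4 probe sets past the floor ran from -0.11 to 0.37. RAB29, which recruits the kinase LRRK2 to membranes, read 2973 and 2934. RAB9A, which returns mannose 6-phosphate receptors from endosomes to the Golgi, read 2306 and 2416, while its paralog RAB9B read 148 and 118, at -0.32. The group of 9 measured genes had 7 past the floor, 2 higher and 5 lower, with a median of -0.10. The split was 3 and 4 with median centring and also when every probe set was averaged.

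The genes of early endosomes showed small differences. RAB5A, which controls fusion of early endosomes, read 8679.8 and 8632, a difference of -0.0080. RAB5B read 942 and 981, at 0.058, and RAB5C read 1041 and 1145, at 0.14, with its other probe set at 0.18. The 3 RAB5 paralogs thus lay within 1.2-fold of equality on these arrays. RAB4A, which acts in fast recycling, read 2478 and 2084, at -0.25, with its other probe sets at 0.036 and -0.28. RAB20, found on endosomes and phagosomes, read 2420.1 and 2968, at 0.29, and its second probe set was under the floor on both arrays. RAB21, which regulates integrin traffic, read 2684 and 3088 with its brightest probe set, at 0.20, but 820.2 and 541 with another, at -0.60. RAB22A read 1951.5 and 1983, at 0.023. RAB31, a close relative of RAB22A, was under the floor on both arrays with each of its 3 probe sets. Of 7 genes past the floor 5 were higher and 2 lower, with a median of 0.058. The split was 6 and 1 with median centring. When every probe set was averaged it was 3 and 4, with a median of -0.17.

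The recycling and surface delivery group held the most members past the floor, 11 of 12. RAB11A, the main GTPase of the recycling endosome, read 10171 and 10949.8 with its brightest probe set, at 0.11. Its other probe sets gave -0.31 and -0.19, so its probe sets do not settle a direction. RAB11B was under the floor with both of its probe sets. RAB25, the epithelial member of the RAB11 subfamily, read 3602 and 3516, at -0.035. RAB10 and RAB8A, which serve delivery from the Golgi and recycling endosomes to the plasma membrane, differed by 0.11 and -0.0045. RAB8B, the paralog of RAB8A, read 1473 and 1149, at -0.36, with its other probe sets at -0.47 and 0.21. RAB13, a tight junction GTPase, read 4176 and 5210.3, at 0.32, from its only probe set. RAB12 read 3501 and 4497, at 0.36, and 370.1 and 512 with a dimmer probe set, at 0.47. The remaining probe set, whose identifier marks sequence shared with other transcripts, read 4335.5 and 3244, at -0.42. Shared sequence is also marked on the brightest probe set of other RAB genes, among them RAB11A, RAB1A, RAB18 and RAB27A. RAB14, RAB15, RAB17 and RAB35 were between -0.047 and 0.053. The median of the group was -0.0045, with 5 genes higher and 6 lower. The split was 10 and 1 with median centring, and 4 and 7 when every probe set was averaged.

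Of the genes between the endoplasmic reticulum and the Golgi, RAB1A read 18794 and 20426, at 0.12, and RAB1B read 999 and 877, at -0.19. Both act in transport from the endoplasmic reticulum to the Golgi. RAB2A read 4044 and 4286, at 0.084, and RAB18, found on the endoplasmic reticulum and on lipid droplets, read 5535 and 5571.5, at 0.0096. RAB33B, a Golgi GTPase that binds ATG16L1, read 744 and 577, at -0.37, the lowest value of any RAB gene past the floor. RAB6B read 214 and 178, at -0.27, with another probe set at -0.57, close to 1.5-fold. RAB6A, a major Golgi GTPase, was under the floor with its only single-gene probe set, which read 4.42 and 28.9, whereas the probe set annotated to RAB6A, RAB6C and RAB6D together read 12295 and 11705, at -0.071, and the 3 annotated to RAB6A and RAB6D gave differences from -0.11 to 0.33. The group of 13 measured genes had 8 past the floor, 4 higher and 4 lower.

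In regulated secretion, 4 of 8 genes were past the floor and all of these lay within 1.2-fold. RAB27A and RAB27B, which dock secretory granules and exosome-bearing endosomes at the plasma membrane, read 758 and 816, and 2289 and 2096. The log2 differences were 0.11 for RAB27A and -0.13 for RAB27B. RAB27B was lower with each of its 3 probe sets, down to -0.34. The 5 probe sets of RAB27A disagreed, with 3 from 0.11 to 0.26 and the other 2 at -0.51 and -0.71. RAB3D, the RAB3 paralog of exocrine granules, read 372 and 353, and RAB3A, RAB3B, RAB3C and RAB37 were under the floor. Of the remaining genes, RAB23, a negative regulator of Hedgehog signalling, read 2897 and 2299, at -0.33, and all of its 3 probe sets were lower. RAB28, a ciliary GTPase, read 2402 and 1956, at -0.30, with its other probe sets past the floor at -0.26 and -0.12. RAB40B and RAB40C, which act in ubiquitin ligases, differed by -0.11 and 0.054.

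The order of differences rests partly on the choice of probe set. There were 84 RAB probe sets past the floor on both arrays, 35 of them higher and 49 lower. One was at least 1.5-fold higher, that of RAB38, and 2 were at least 1.5-fold lower, those named above for RAB21 and RAB27A. These counts were not made over the probe sets of all genes, so they show no lean particular to RAB genes. Of 23 RAB genes with several probe sets past the floor on both arrays, 11 had all of them on the same side of 0 (47.8%), beside 45.1% of 5203 genes in all. RAB5C, RAB10, RAB15 and RAB22A were higher with each such probe set. RAB6B, RAB14, RAB23, RAB27B, RAB28, RAB29 and RAB35 were lower with each, of which RAB14, RAB29 and RAB35 turned sign with median centring. In RAB8B, RAB12, RAB21 and RAB27A the probe sets lay at least 1.5-fold apart from each other (17.4%, beside 19.2% of all such genes). Probe sets past the floor on 1 array alone widen RAB5A, with one that read 160 and 92.6, and RAB29, with one that read 81.2 and 119.5. The SD between probe sets of the same gene was 0.25 for RAB genes and 0.26 for all genes, and the latter exceeds the size of the difference in 31 of the 41 RAB genes.

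**Figure D2:**
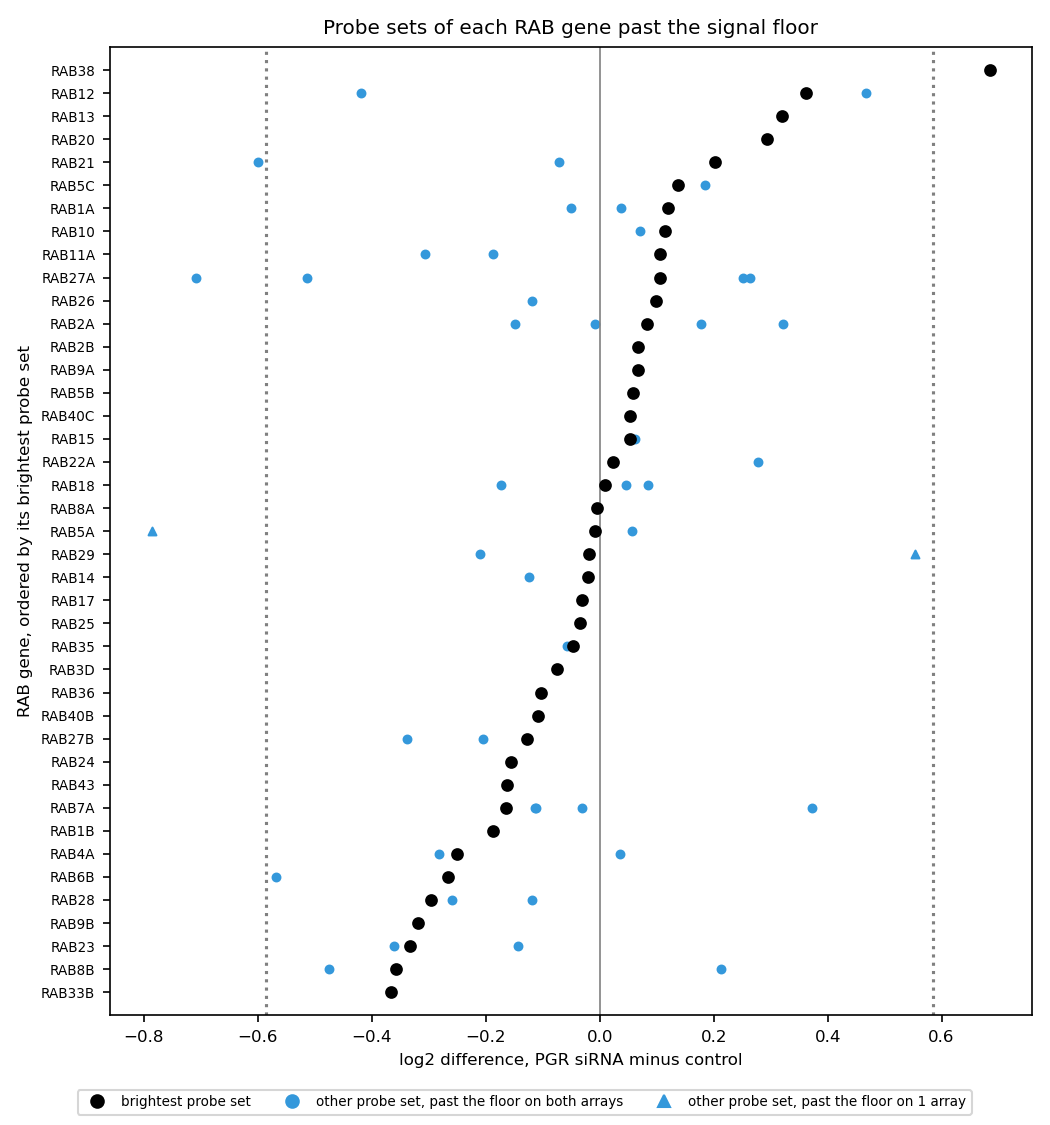
Log2 difference (array labelled PGR siRNA minus array labelled control) of each probe set past the signal floor of the 41 RAB genes, ordered by the brightest probe set in black, with other probe sets in blue and dotted lines at 1.5-fold. RAB38 alone lies right of the upper line, and the blue points of RAB27A, RAB21, RAB12 and RAB8B are spread widest among probe sets past the floor on both arrays.

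Macropinocytosis is the process the study set out to follow. A list of 10 RABs placed on macropinosomes by general knowledge held 9 measured genes, RAB34 being left out as above, and all 9 were past the floor on both arrays. They were RAB5A, RAB5B, RAB5C, RAB7A, RAB8A, RAB10, RAB20, RAB21 and RAB35, with values given above for RAB5A, RAB5B, RAB5C, RAB7A, RAB20 and RAB21. RAB8A read 2365 and 2357, RAB10 read 7879.9 and 8532, and RAB35, a regulator of fast recycling and of actin, read 982 and 950.4. By the brightest probe set none was past 1.5-fold, beside the 1.86% and 2.31% of all genes that were higher or lower. A dimmer probe set of RAB21 was past it, at -0.60. Within 1.2-fold lay 8, all but RAB20, beside 73.7% of all genes, and in a list of 9 neither count stands apart from that background. Their median difference was 0.058, with 5 higher and 4 lower. The split was 8 and 1 with median centring, which also raised the median of all genes. With the mean of all probe sets it was 3 and 6, with a median of -0.018.

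The proteins that load, switch off and read RABs were described from lists written from general knowledge. Of 6 measured genes for prenylation and membrane extraction none was past 1.5-fold with its brightest probe set. RABAC1, a membrane receptor for prenylated RABs, was highest at 0.31. CHML, an escort protein for prenylation, was lowest at -0.32, and its other probe sets past the floor were at -0.21 and, reading 507 and 241, at -1.07. Of 36 exchange factors past the floor on both arrays none was past 1.5-fold either, and their median was -0.054. They ran from -0.46 for DENND2A, which read 143 and 104, to 0.36 for RABGEF1, an exchange factor for RAB5. Past the floor on 1 array alone, DENND3 and RIN2 were at least 1.5-fold higher and RAB3IL1 and CCZ1 at least 1.5-fold lower. These 4 make up the rest of the 40 exchange factors past it on either array. Genes of this kind pass only through the array where they read higher, so a wide gap is partly built in and gives no size. Of all genes past the floor on either array, 3.65% were at least 1.5-fold higher and 4.72% lower. DENND3 read 96.1 and 186 with its brightest probe set, but 173 and 103 with another, at -0.75. Of 33 GTPase-activating proteins 1 was at least 1.5-fold lower. TBC1D10A, which acts on RAB35 and RAB27A, read 524 and 330.2, at -0.66. TBC1D25 was the highest of that list at 0.41, and the median was -0.11, with 13 higher and 20 lower. EVI5L, at 1.01, and TBC1D17, at -1.07, were past the floor on 1 array alone, with the same limit as above. Of 39 effectors 1 was at least 1.5-fold lower. RILP, which links RAB7A on late endosomes to dynein, read 266 and 145, at -0.87, and its relative RILPL1 read 618 and 842, at 0.45, the highest of the list. The effectors had a median of -0.074, with 15 higher and 24 lower. Of all genes past the floor on both arrays 5847 were higher and 4993 lower. TBC1D10A and RILP, 2 of 114 regulators and effectors past the floor on both arrays, stand beside the 2.31% of all genes given above. A dimmer probe set past the floor on both arrays was at least 1.5-fold lower in 7 further genes, CHML, DENND1B, DENND3, DENND4C, HPS1, INPP5B and TBC1D1, and higher in SGSM3, so the brightest probe set does not stand for every probe set of these genes. The same count over the dimmer probe sets of all genes was not made, so no lean of the regulators can be read from it.

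The ARF and ARL genes, small GTPases of another family that act in coat assembly and traffic, were read in the same way. The list held 26 genes, of which 15 were measured by single-gene probe sets. Of 14 ARF and ARL genes past the floor on both arrays none was past 1.5-fold, and their median was 0.054. Of all genes past the floor on both arrays 1.86% were at least 1.5-fold higher and 2.31% lower. In a list of 14 the absence of such genes does not stand apart from that background. The difference between this family and the RAB genes was not tested.

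**Figure D3:**
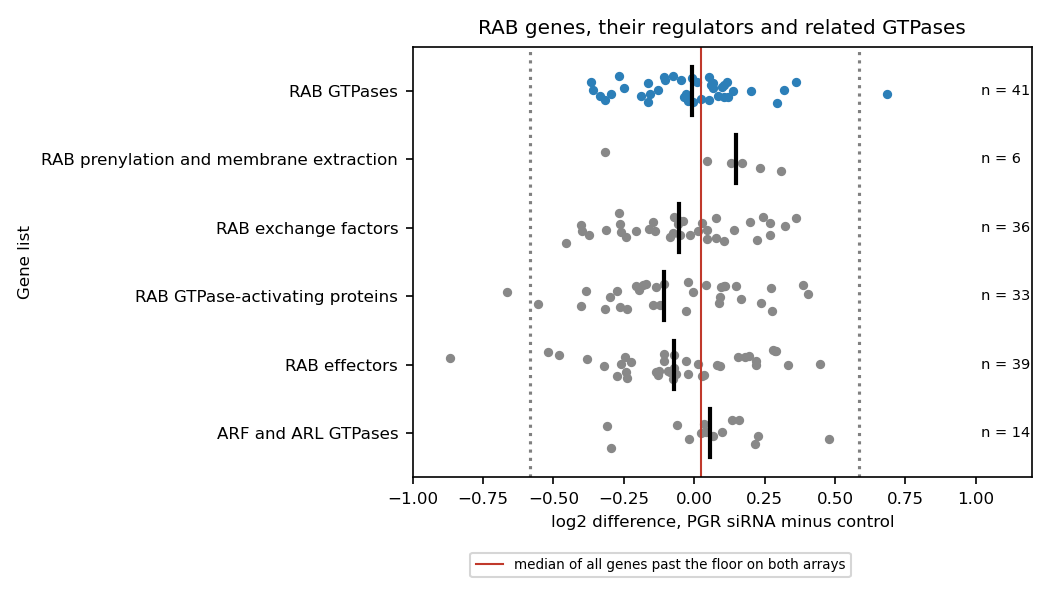
Log2 difference (array labelled PGR siRNA minus array labelled control) of the genes past the signal floor on both arrays in each list, with 1 point per gene, black bars at list medians, a red line at the median of all genes and dotted lines at 1.5-fold. The RAB points, in blue, lie between the dotted lines except RAB38 at 0.68, and the farthest points of the other lists are RILP at -0.87 among effectors and TBC1D10A at -0.66 among GTPase-activating proteins.

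The study examined PGR at the promoter of CDC42, a GTPase of another family. The promoters of RAB genes were read from RefSeq sequences of GRCh38.p14. They were found for 45 of the 57 genes, and for 32 of the 41 past the floor. The sequences of the lowest and highest members with an entry are printed from 250 bases before the gene's start up to it, at the start listed first for the gene, so that readers can set sequence beside value. RAB8B and RAB23, at -0.36 and -0.33, are the lowest of these, and RAB13 and RAB21 the highest, at 0.32 and 0.20. These places rest on the brightest probe set, and the directions of RAB8B and RAB21 are not settled by their probe sets. Capitals mark TGTTCT or its reverse complement AGAACA, the core hexamer that steroid receptors such as PGR recognise.
RAB8B, chr15:63189356-63189605, plus strand: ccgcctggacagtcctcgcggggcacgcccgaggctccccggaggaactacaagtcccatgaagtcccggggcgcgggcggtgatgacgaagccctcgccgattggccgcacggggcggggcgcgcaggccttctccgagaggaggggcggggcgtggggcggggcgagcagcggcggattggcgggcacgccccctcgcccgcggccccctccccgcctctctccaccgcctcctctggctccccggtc
RAB23, chr6:57222308-57222557, minus strand: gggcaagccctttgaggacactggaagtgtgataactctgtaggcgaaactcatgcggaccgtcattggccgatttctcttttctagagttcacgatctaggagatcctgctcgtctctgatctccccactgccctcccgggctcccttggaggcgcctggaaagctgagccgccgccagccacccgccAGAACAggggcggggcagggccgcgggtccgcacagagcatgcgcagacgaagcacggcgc
RAB13, chr1:153986340-153986589, minus strand: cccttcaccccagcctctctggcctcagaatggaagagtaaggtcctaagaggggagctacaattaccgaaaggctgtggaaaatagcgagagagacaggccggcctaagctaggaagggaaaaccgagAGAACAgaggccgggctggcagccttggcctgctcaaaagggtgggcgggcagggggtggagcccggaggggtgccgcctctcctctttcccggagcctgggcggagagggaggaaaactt
RAB21, chr12:71754613-71754862, plus strand: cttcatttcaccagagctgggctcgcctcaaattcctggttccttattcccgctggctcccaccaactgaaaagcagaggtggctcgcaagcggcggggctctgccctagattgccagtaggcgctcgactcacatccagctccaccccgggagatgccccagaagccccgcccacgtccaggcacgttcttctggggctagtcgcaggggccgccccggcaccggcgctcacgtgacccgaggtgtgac

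The hexamer lies 61 bases before the start of RAB23 and 121 before that of RAB13, a gene that was lower and a gene that was higher, and it is absent from the other windows printed. On either strand and at any listed start it occurred in 7 of 45 RAB promoters (15.6%), beside 14.8% of 27305 genes with a promoter. The full element, AGAACA and TGTTCT with 3 bases between them, occurred in none of the 45 and in 1 of all. The GC content of the printed windows was 77.2% for RAB8B, 62.8% for RAB23, 61.2% for RAB13 and 64.8% for RAB21, and the median was 65.6% for RAB genes and 58.0% for all. A match of letters is a description and shows no binding.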

How the data were processed

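Gene expression was measured in AsPC-1 cells on 1 array labelled control and 1 labelled PGR siRNA, taken from the treatment labels. The authors deposited linear intensity values, 1 per probe set and array. The trimmed mean, with 2% removed at each end, was 500.1 on both, so the values had been scaled before deposition, while no source used here gives the algorithm for summary or background. Having so few arrays limits the precision, and no test was run.

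Probe sets were named from the platform annotation, and symbols were updated by gene identifier to RefSeq, GRCh38.p14. Of 54675 probe sets, 1801 with several symbols and 11777 with none were left out. The offset was 1 and the floor 97.9. Members, lists and rules were chosen with earlier results of these data known. Named members are those past 1.5-fold, those with probe sets 1.5-fold apart, the macropinosome RABs and the members of highest signal in each role, and other members were added after their values were seen. Named regulators are the ends of each list and any past 1.5-fold with both values past the floor. Those past 1.5-fold with 1 value past the floor, and those with a dimmer probe set past 1.5-fold, were named in addition. A further list of related genes is not reported here.

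The alternatives are given in the closing section. The calculation was tested on simulated data. The software was matplotlib 3.10.9, statsmodels 0.14.6, scipy 1.17.1, pandas 2.3.3 and numpy 2.4.6 under Python 3.11.15.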

Additional observations from a re-analysis of the deposited data

How the results depend on the processing

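The median RAB difference of -0.0080 stayed within 0.1 under every alternative run, from -0.036 with loess (span 0.7) to 0.043 with median centring, which moved the median of all genes from 0.021 to 0.073, and it was 0.023 with the floor at the 75th percentile. RAB38 was the only RAB gene at least 1.5-fold higher under 9 of 11 alternatives at that fold. It has 1 probe set, past the floor on both arrays, so averaging, probe set choice and raising low values could not change its difference. With no filter on low values 6 RAB genes were at least 1.5-fold higher and 4 lower, the added ones all under the floor on both arrays, beside 14% and 16.6% of all genes. With the floor at the 75th percentile, an intensity of 623, RAB38 was left out and 0 were higher, and at a fold of 2 the count was 0. Averaging every probe set of a gene, 1 gene was lower, RAB20 at -0.60, through a second probe set under the floor (55.4 and 19.0). That average also moved RAB18 to -0.35, RAB40B to 0.20 and RAB40C to 0.42, all through probe sets under the floor, and RAB21 to -0.21, and it turned the sign of 9 genes. The mean of probe sets past the floor on both arrays, an alternative chosen after seeing the data, turned 6, with RAB21 at -0.16, RAB11A at -0.13 and RAB27A at -0.12, the last 2 being the same under both averages. RAB11A was at -0.19 and RAB18 at -0.17 without probe sets marked for shared sequence. Median centring turned 7 genes, all of them within 0.05 of 0. Quantile normalization, an offset of 16 and raising low values to the floor changed no count. No paired analysis was possible because each condition has 1 array, and for the same reason no array could be left out.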

Other observations

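The 16 RAB genes under the signal floor on both arrays were RAB3A, RAB3B, RAB3C, RAB4B, RAB6A, RAB7B, RAB11B, RAB30, RAB31, RAB32, RAB33A, RAB37, RAB39A, RAB39B, RAB40A and RAB42. Of these, 6 were at least 2-fold apart between the arrays, beside 44.6% of all 8161 genes under the floor, so such gaps are common at this signal and give no size. RAB32, the relative of RAB38, gave 80.8 for the control label and 18.1 for the PGR siRNA label with its brighter probe set, and 54.0 and 13.0 with the other. RAB3B was lower with 4 of its 5 probe sets, its brightest reading 80.7 and 58.9. RAB4B was under the floor with its own probe set, while the 3 probe sets it shares with the readthrough transcript MIA-RAB4B read from 383 to 428 on the array labelled control and gave differences from -0.35 to 0.052. A further probe set, annotated to RAB4B, EGLN2 and their readthrough transcript, read 135 and 84.0, at -0.68.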
